A study of Ovis aries with 18 samples.

Results

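Galectins are small lectins that bind glycans ending in galactose, on glycoproteins of the cell surface, the extracellular matrix and lysosomes. They are made in the cytosol and leave the cell by a route that bypasses the classical secretory pathway, so that the same protein can act on both sides of the membrane: outside it cross-links glycoproteins and affects adhesion, and inside it binds signalling and splicing proteins or the glycans exposed on damaged lysosomes. In ruminants, galectins of the uterus are known from work on the attachment of the conceptus. Galectin-3 (LGALS3) joins a single carbohydrate-binding domain to a long tail through which it forms multimers, galectin-4 (LGALS4) and galectin-8 (LGALS8) carry a pair of such domains, and LGALS3BP is a secreted glycoprotein that galectins bind rather than a galectin itself.

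The genes described here are LGALS1, LGALS3, LGALS4, LGALS8 and LGALS3BP in pools of sheep embryos. They were chosen by name, as galectins in the table of gene counts, with LGALS3 being the most counted gene in 2 of the pools, so its counts led to the choice and its levels are given as a description. Of the 5 genes named, 4 had a row among the 20092 genes counted. LGALS1 had none and was not analysed here. All 4 passed the filter on low values (15 counts or more in over 3 pools), as did 16488 genes in total. Of 14 other galectin symbols looked up, 4 had a row (LGALS2, LGALS7, LGALS12 and the galectin-like gene LGALSL), and LGALS7 did not pass the filter.

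The study asked whether a diet rich in methionine, a methyl donor, fed to young rams was followed by changes in the transcriptome of their embryos. Control rams received a basal diet, and methionine rams received the same diet with a top-dress of rumen-protected methionine (1.5 g, a 0.22% addition) for 77 days, starting at a mean age of 88 days. All were Polypay rams, mated after the feeding period to superovulated Polypay ewes, and blastocysts were flushed 8 days after the rams joined the ewes and pooled by 5. Control sires Ram410, Ram423 and Ram444 gave 2 pools each, and methionine sires Ram424, Ram498 and Ram511 gave 4, 1 and 1, so 4 of the 6 methionine pools shared a sire. Pools are named by sire and number (Embryo424_1 to Embryo424_4). The labels used here do not give the dam or the developmental stage of a pool, and pools of a sire are not independent replicates of a diet. RNA of the few embryos was amplified as a whole before sequencing, without molecular identifiers, so that intervals from counts cover counting error only.

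Counts summed to 1173289 to 1554651 in control pools and 1017847 to 2398589 in methionine pools. Control pool Embryo444_2 and methionine pool Embryo511_1 stood apart from the rest: their median Spearman correlation with the other pools over tested genes was 0.582 and 0.6, against 0.82 to 0.857 in the other 10. The 9 trophectoderm marker genes with a row (of 11 listed), which mark the outer cell layer of the blastocyst, summed to 5406 to 14880 CPM (counts per 1000000, with library sizes scaled by the trimmed mean of M-values) in those 10 pools, but to 290.2 in Embryo444_2 and 259 in Embryo511_1. KRT8, a keratin of that layer, had 116 and 42.6 CPM there against 3893 to 11862 elsewhere. KRT18, another keratin, had 14.2 and 34.7 CPM there against 696 to 2219, and these keratins made up most of the sum in the other 10 pools. The remaining trophectoderm genes with a row, apart from KRT19, were also lowest in Embryo444_2 and Embryo511_1. The 5 of 7 inner cell mass genes with a row summed to 80.7 and 142 CPM in these pools and to 188 to 591 in the others, and the 6 of 7 hypoblast genes to 277 and 302 against 528 to 1302. Markers of other cell types did not share 1 direction. The 4 of 9 uterine epithelium genes summed to 176 CPM in Embryo444_2 and 95.2 in Embryo511_1 (77.7 to 120 elsewhere), the 4 of 9 leukocyte genes to 178 and 334 (92.1 to 727), and the 2 of 6 cumulus genes to 139 and 52.5 (35.7 to 94.9). The 4 of 6 sperm genes summed to 48.1 and 1066 (20 to 106). Of the 1066 CPM, TNP1 made up 1008, while AKAP4 (53.5) and ODF1 (3.97) lay within the range of the other 10 pools. In Embryo511_1 SOX17 (hypoblast) and TNP2 (sperm) were at 0, and none of the listed markers with a row was at 0 in Embryo444_2. Other pools had markers at 0 as well: TNP2 in Embryo424_2, ODF1 in Embryo423_1, and FGF4 (inner cell mass) in Embryo410_2, Embryo423_1, Embryo423_2 and Embryo424_2. SOX17 and TNP2 were low throughout, with at most 5.71 and 4.26 CPM in any pool. Single markers did not all follow their sums. Of the trophectoderm genes, KRT19 had 8.49 CPM in Embryo444_2 and 18.8 in Embryo511_1, within the 6.23 to 59.5 of the others. Of the leukocyte genes, CSF1R in Embryo410_2 (639) set the upper end of the range of sums. PTPRC was highest in Embryo444_2 and Embryo511_1 (121 and 254, with 40.2 to 76.5 elsewhere). CD68 was lowest in them (6.37 and 1.98, with 8.6 to 38.8 elsewhere). Of the inner cell mass genes, POU5F1 had 14.2 and 39.7 CPM in these pools (132 to 521 elsewhere), but PRDM14 was highest in them, with 43.9 and 83.3 (14.5 to 37.9 elsewhere). Of the hypoblast genes, GATA6 had 38.9 and 66.4 CPM (249 to 801 elsewhere), while GATA4 was highest in Embryo511_1 (94.2) and FOXA2 (39.6) and PDGFRA (166) in Embryo444_2. The part of these markers in the galectin levels was not tested, and the results by diet are given with and without both pools.

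LGALS3 was among the most counted genes of the blastocyst pools. In control pools it had 2798 CPM in Embryo410_1, 3278 in Embryo410_2, 2066 in Embryo423_1, 3582 in Embryo423_2, 2703 in Embryo444_1 and 14.9 in Embryo444_2. In methionine pools it had 7005 CPM in Embryo424_1, 7286 in Embryo424_2, 5855 in Embryo424_3, 3270 in Embryo424_4, 3462 in Embryo498_1 and 92.2 in Embryo511_1. The highest 3 values were all pools of Ram424, and the lowest 2 were the pools with low trophectoderm sums. In the bulk RNA of a pool, fewer cells of a type and less RNA per cell cannot be told apart.

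By rank, LGALS3 held place 1 of all genes in Embryo424_1 (14657 counts) and in Embryo424_2 (12869 counts), the values on which it was chosen. TALDO1, an enzyme of the pentose phosphate pathway, came next in both, with 13633 and 11971 counts. Just outside that choice, LGALS3 held place 3 in Embryo424_3 (8295 counts) and in Embryo498_1 (5749 counts). It held places 4 to 13 in the 5 control pools other than Embryo444_2 and place 7 in Embryo424_4. TALDO1 was the most counted gene in Embryo410_1, Embryo423_1, Embryo423_2 and Embryo498_1, KRT8 in Embryo410_2, Embryo424_3 and Embryo424_4, and the ubiquitin ligase gene UBR4 in Embryo444_1. Counts were not divided by transcript length, so these places order reads and not molecules.

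In Embryo444_2, LGALS3 had 21 counts (95% Poisson interval 13.0 to 32.1) and place 13331, and in Embryo511_1 it had 93 counts (75.1 to 114) and place 2917. TTN, the gene of the muscle protein titin, was the most counted gene of Embryo444_2, with 2516 counts, and PKP2, a component of desmosomes, was that of Embryo511_1, with 5117. Both pools of Ram444 came from the same ram, yet LGALS3 was 182 times lower in Embryo444_2 than in Embryo444_1. Of all tested genes, 99.7% had a larger ratio of Embryo444_2 to Embryo444_1. A gene with few counts in Embryo444_1 reaches so low a ratio only if it has no counts in Embryo444_2. As LGALS3 was chosen on high counts, this share and the rank of its spread are a description only. Over the 12 pools the standard deviation (SD) of log2(CPM + 1) was 2.69 for LGALS3, which ranked 1 from the widest among 16488 tested genes (median SD 0.595). Over the 10 other pools it was 0.612 and ranked 4074 (median 0.471). The position of LGALS3 as the most variable gene was therefore set by Embryo444_2 and Embryo511_1.

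**Figure D1:**
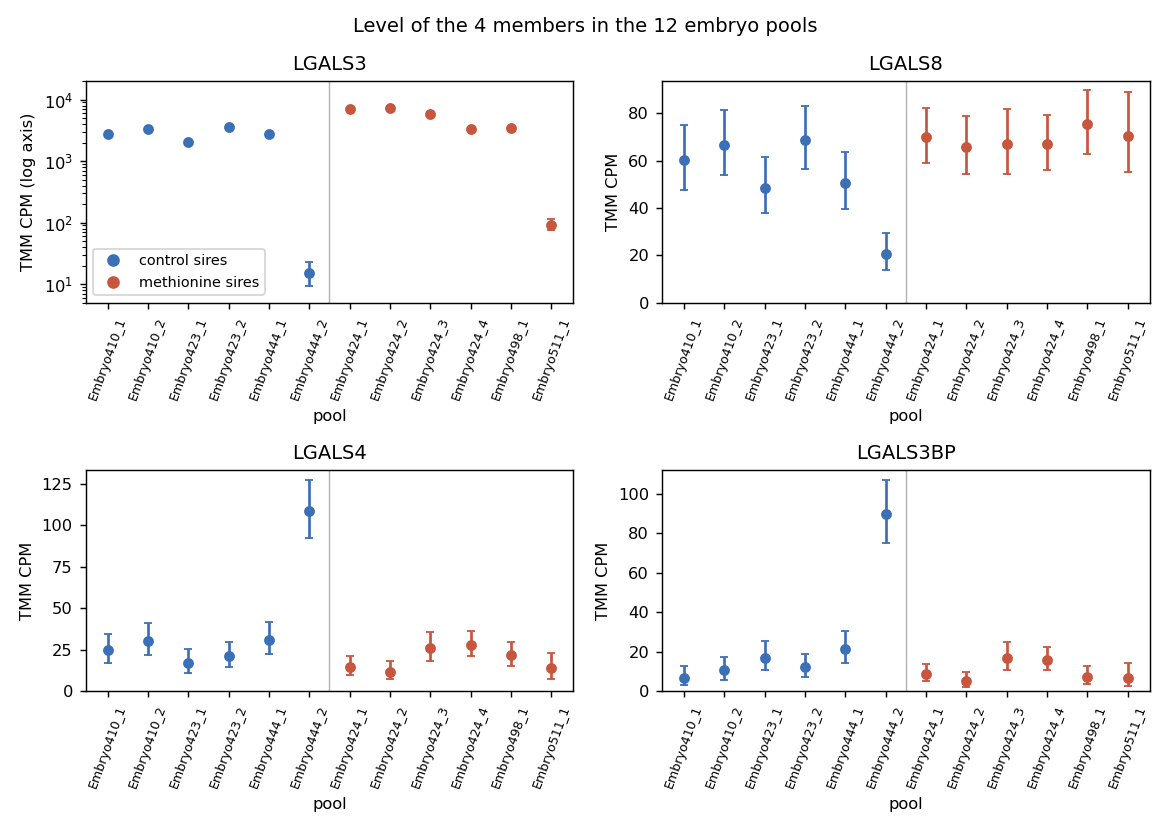
Level of LGALS3, LGALS8, LGALS4 and LGALS3BP (CPM scaled by the trimmed mean of M-values) in each of the 12 embryo pools, with pools of control sires in blue and of methionine sires in red, and bars giving the 95% Poisson interval of the counts; the LGALS3 axis is logarithmic. LGALS3 lies between 2066 and 7286 CPM in 10 pools and at 14.9 and 92.2 in Embryo444_2 and Embryo511_1, LGALS8 stays between 48.6 and 75.3 in every pool but Embryo444_2, and LGALS4 and LGALS3BP are highest in Embryo444_2.

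Within a sire, and leaving Ram444 aside, the pools of a ram spanned less of a range for LGALS3. The higher pool had 1.17 times the level of the lower in Ram410 and 1.73 times in Ram423, and the highest of 4 had 2.23 times the lowest in Ram424. The pools Embryo424_1 and Embryo424_2 were the most alike of all pairs of pools from a ram (Spearman 0.955 over genes), with a chi-square of their counts of 3.29 per degree of freedom. Reads amplified without molecular identifiers exceed counting noise in any case, so this value cannot tell separate embryos from repeated amplification of the same RNA. The labels give them as separate pools and both were kept; with the pair summed to 1 pool, the log2 fold change between diets was 0.72 ± 1.09 (standard error, SE) for LGALS3, against 0.90 ± 1.03 with both. Averaged per sire, LGALS3 had 3038, 2824 and 1359 CPM in control sires Ram410, Ram423 and Ram444, and 5854, 3462 and 92.2 CPM in methionine sires Ram424, Ram498 and Ram511. The sires of the diets were thus interleaved, with a methionine sire at each end.

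LGALS8, a galectin that recognises glycans exposed on damaged endosomes, had the smallest spread of the 4 genes, over 12 pools and over 10. Control pools had 60.2 CPM in Embryo410_1, 66.6 in Embryo410_2, 48.6 in Embryo423_1, 68.7 in Embryo423_2, 50.4 in Embryo444_1 and 20.5 in Embryo444_2. Methionine pools had 69.8 CPM in Embryo424_1, 65.7 in Embryo424_2, 67.1 in Embryo424_3, 66.9 in Embryo424_4, 75.3 in Embryo498_1 and 70.4 in Embryo511_1. Pool Embryo511_1, in which LGALS3 was so low, lay within the range of the other methionine pools for LGALS8, whereas Embryo444_2 was the lowest of all. The coefficient of variation over the 6 methionine pools was 5.06%, below the 8.28% to 11.9% that counting alone gives for single pools with 146 and 71 counts. A spread below counting error is no measure of how stable the gene is between pools. As a share of all counts of a methionine pool, LGALS8 ran from 0.00576% in Embryo424_2 to 0.00801% in Embryo498_1. Over the 10 pools other than Embryo444_2 and Embryo511_1 the SD of log2(CPM + 1) was 0.201, and 1.77% of tested genes had a smaller one.

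LGALS4, known as a galectin of the gut epithelium, was at a low level in most pools. It had 24.8 CPM in Embryo410_1, 30.5 in Embryo410_2, 17.1 in Embryo423_1, 21.2 in Embryo423_2, 31.2 in Embryo444_1 and 109 in Embryo444_2. Methionine pools had 14.8 in Embryo424_1, 11.9 in Embryo424_2, 26.1 in Embryo424_3, 28.0 in Embryo424_4, 21.7 in Embryo498_1 and 13.9 in Embryo511_1. The level in Embryo444_2, from 154 counts, was 3.49 times that in Embryo444_1, and every other pool of either diet lay between 11.9 and 31.2 CPM, from 14 to 57 counts.

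LGALS3BP, the secreted ligand, had the lowest mean level of the 4 in the 10 pools (12.2 CPM) and the same outlying pool. It had 6.77 CPM in Embryo410_1, 10.6 in Embryo410_2, 17.1 in Embryo423_1, 12.2 in Embryo423_2, 21.3 in Embryo444_1 and 89.9 in Embryo444_2. Methionine pools had 8.6 in Embryo424_1, 5.1 in Embryo424_2, 16.9 in Embryo424_3, 15.7 in Embryo424_4, 7.23 in Embryo498_1 and 6.94 in Embryo511_1. Outside Embryo444_2 (127 counts) these values rest on 7 to 32 counts. The ratio of Embryo444_2 to Embryo444_1 was 4.22 for LGALS3BP, a ratio that 2.66% of tested genes exceeded, and 4.39% exceeded that of LGALS4. Pool Embryo511_1, also low in trophectoderm markers, did not share the high level of either gene.

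**Figure D2:**
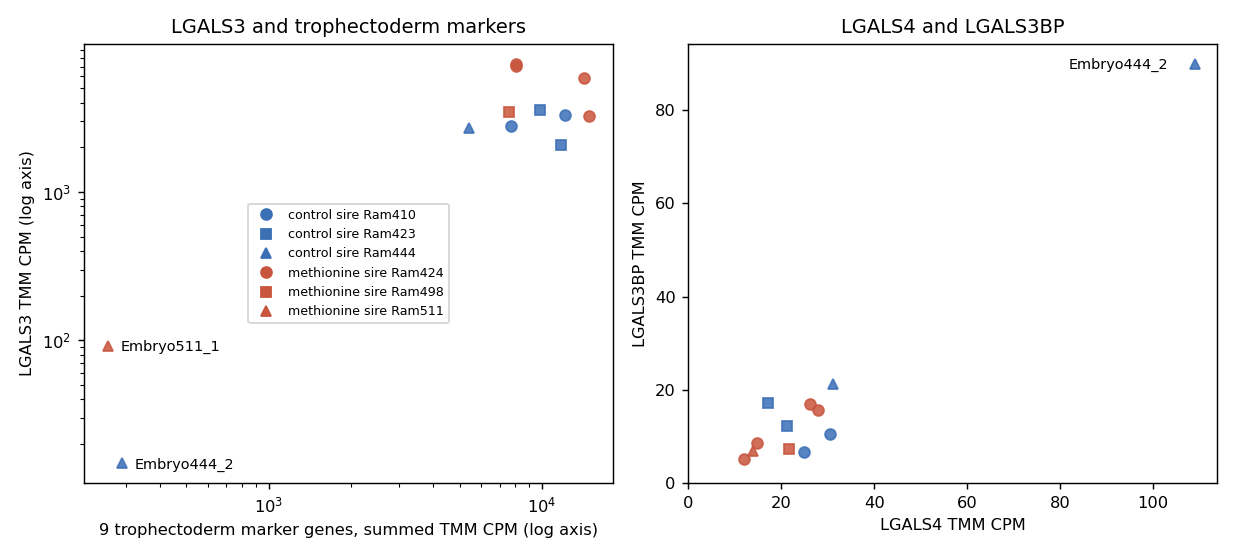
Left, LGALS3 (CPM) against the summed CPM of 9 trophectoderm marker genes, both on log axes; right, LGALS3BP against LGALS4 (CPM), with 1 point per pool, colours for the diet of the sire and shapes for the sire. Pools Embryo444_2 and Embryo511_1 lie at the low end of both LGALS3 and the trophectoderm genes, while only Embryo444_2 is high in both LGALS4 (109) and LGALS3BP (89.9). KRT8 and KRT18 make up most of the trophectoderm sum in the other pools.

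Among the other galectins, LGALS2 followed the same course as LGALS4 and LGALS3BP in Ram444. It had 89.2 CPM in Embryo444_2, whereas the 5 remaining control pools had 9.62 to 19.2 and the methionine pools 4.94 to 17.5. LGALS12, a galectin described in adipocytes, had 24.1 to 55.7 CPM in control and 37.7 to 82.7 in methionine pools, with 38.2 in Embryo444_2. LGALSL, which resembles galectins but lacks the residues for sugar binding, had 37.5 to 91.8 and 27.5 to 64.5 CPM, with the highest value in Embryo410_1. LGALS7, known from stratified epithelia, had 0 to 12 counts per pool. Across these genes, Embryo444_2 had LGALS2, LGALS4 and LGALS3BP above and LGALS3 and LGALS8 below all other pools, and LGALS12 and LGALSL within their range.

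LGALS4, LGALS8, LGALS3BP and the other galectins tested did not pass a test between the diets of the sires after adjustment over all genes. LGALS3 was chosen on its counts in 2 methionine pools, Embryo424_1 and Embryo424_2, so its differences between diets are given as a description, with no p. In the quasi-likelihood test of edgeR on 12 pools, 0 of 16488 genes passed a false discovery rate (FDR) of 0.05 (0% of genes, with 1306 at an unadjusted p under 0.05). DESeq2 called 16 and the likelihood-ratio test 5, none of them a galectin. LGALS2 had no p in DESeq2 and so could not be called there. The log2 fold change (methionine minus control) of LGALS3 was 0.90 ± 1.03 (SE), from 2407 ± 1282 CPM (SD, n = 6) in control and 4495 ± 2753 (n = 6) in methionine pools. For LGALS8 it was 0.40 ± 0.26 (FDR 0.719), for LGALS4 -0.999 ± 0.43 (FDR 0.608) and for LGALS3BP -1.37 ± 0.57 (FDR 0.607). At an unadjusted p under 0.05, LGALS4 (unadjusted p = 0.0341, edgeR) and LGALS3BP (unadjusted p = 0.0284, edgeR) were lower in methionine pools, as were 4.37% of all tested genes, and 3.55% were higher. LGALS2 was also lower at that level (-1.14 ± 0.52, FDR 0.617).

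The differences of LGALS4, LGALS3BP and LGALS2 depended on Embryo444_2. Without Embryo511_1 alone, the log2 fold change was -0.93 for LGALS4, -1.30 for LGALS3BP and -1.12 for LGALS2. Without Embryo444_2 alone, the log2 fold change was -0.36 for LGALS4, -0.42 for LGALS3BP and -0.24 for LGALS2. With Embryo444_2 and Embryo511_1 both left out, LGALS4 had -0.29 ± 0.31, LGALS3BP -0.35 ± 0.42 and LGALS8 0.22 ± 0.19 (FDR 0.743, 0.772 and 0.679, edgeR). LGALS3 then had 0.88 ± 0.31, with 2885 ± 582 CPM (SD, n = 5) in control and 5375 ± 1912 (n = 5) in methionine pools. Of 16161 genes tested in the 10 pools, 5.74% were higher and 6.18% lower at an unadjusted p under 0.05, and 1 gene passed the FDR (0.00619%). That gene was MROH5, named here after its value was seen, and not a galectin. Over the same 10 pools LGALS3 had 0.80 ± 0.31 with the sire as a random effect in limma and 0.70 ± 0.55 with the pools of a sire summed. All these values of LGALS3 include Embryo424_1 and Embryo424_2, on which it was chosen, and are a description only.

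**Figure D3:**
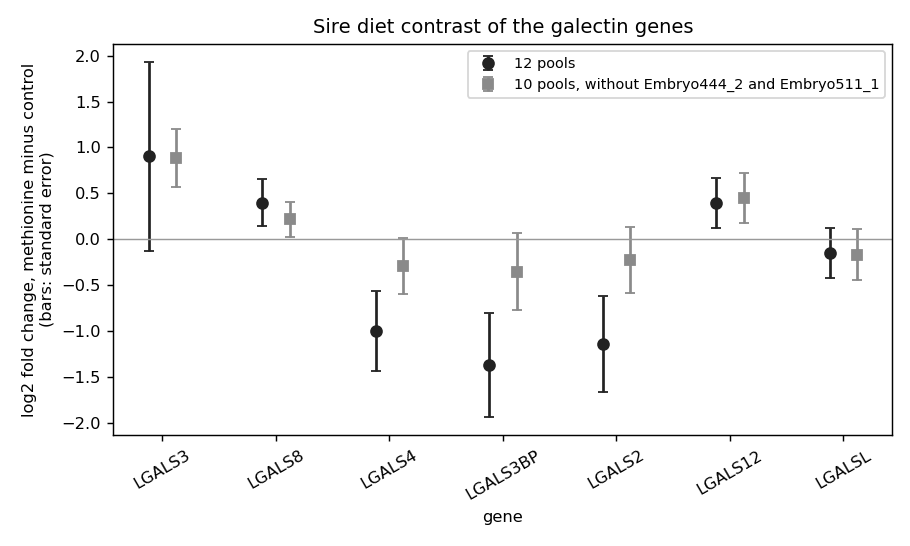
Log2 fold change (methionine minus control, with its SE as a bar) of 7 galectin genes between diets of the sire, over 12 pools (black circles) and over the 10 pools without Embryo444_2 and Embryo511_1 (grey squares). LGALS3 is at 0.90 and 0.88, a description only, as it was chosen on counts of pools that both fits include. LGALS4, LGALS3BP and LGALS2 move from between -1.37 and -0.999 to between -0.35 and -0.23.

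Mean log2(CPM + 1) was also compared between diets by exact permutation, two-sided, for LGALS8, LGALS4 and LGALS3BP and with either pools or sires as the unit, 6 tests in all over 12 pools. With 12 pools, LGALS8 was higher in methionine pools by 0.49 (exact p = 0.0173, not adjusted), although Embryo410_2 and Embryo423_2 of the control pools lay within the methionine range. The result did not pass over the 10 pools (0.24, exact p = 0.0635) nor with CPM scaled by the total count (0.39, exact p = 0.102). LGALS4 gave -0.74 over 12 pools (exact p = 0.0823) and -0.31 over 10 (exact p = 0.278). LGALS3BP gave -0.88 over 12 pools (exact p = 0.139) and -0.35 over 10 (exact p = 0.397). The same difference of means was 1.13 for LGALS3 over 12 pools and 0.84 over 10.

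With the 6 sires as the unit, 3 against 3, the smallest p possible was 0.1, so no gene could pass. LGALS8 reached it, with the 3 methionine sires (67.3, 75.3 and 70.4 CPM) above the 3 control sires (63.4, 58.6 and 35.5). With CPM scaled by the total count LGALS8 did not reach it (0.48, exact p = 0.2), so the separation of its sires depended on the scaling. Sire means of the diets did not overlap, in either direction, for 7.36% of tested genes. LGALS4 and LGALS3BP had an exact p of 0.2 each between sires. The sire means of LGALS3 differed by 0.03. In the 10 pools, with 5 sires left, the means of LGALS3, LGALS8 and LGALS12 per sire did not overlap between diets. This was so for 18.4% of genes. As LGALS3 was chosen on its counts in pools of Ram424, the order of its sires is a description only. At the level of pools, no galectin separated the diets, against 0.352% of genes in 12 pools and 1.77% in 10. The pools of Ram424 carried the higher LGALS3 of the methionine group: Embryo498_1, at 3462 CPM, lay within the range of the 5 control pools (2066 to 3582), as did Embryo424_4, and without Ram424 the log2 fold change was -0.43 ± 1.66. The methionine group then held only Embryo498_1, which was above the mean of the 5 control pools (2885 CPM), and Embryo511_1, at 92.2 CPM.

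Genes whose levels followed LGALS3 over the 12 pools were those that were low in Embryo444_2 and Embryo511_1. The 5 highest Pearson coefficients in log2(CPM + 1) were those of ACTN1 (0.991) and ACTG1 (0.99), which encode an actin cross-linker and a cytoplasmic actin, of RPLP0 (0.986) and RPL13 (0.985), which encode ribosomal proteins, and of SDHB (0.986), a subunit of mitochondrial complex II. ACTG1 had 1897 to 4400.1 CPM in 10 pools, 38.2 in Embryo444_2 and 234 in Embryo511_1. Over the 10 pools these 5 coefficients were 0.732 to 0.844, and after also leaving out Embryo424_1 and Embryo424_2, the pools farthest from the median of LGALS3, they were -0.011 to 0.578 over 8 pools. Leaving out the extremes of LGALS3 narrows its range, which by itself lowers a coefficient. The lowest coefficients were those of NMNAT2 (-0.968), CYLD (-0.955), PKHD1L1 (-0.955), DCDC1 (-0.955) and RB1 (-0.952), and CYLD and RB1 had positive coefficients over the 10 pools (0.346 and 0.378).

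Over the 10 pools alone, the 5 highest coefficients were those of SLC25A36 (0.959), PA2G4 (0.959), ARPC3 (0.958), MRPL12 (0.958) and FIP1L1 (0.956), and over 8 pools they were 0.894 to 0.932. MRPL12, a mitochondrial ribosomal protein gene, was the only 1 of these 5 that also had a coefficient above 0.9 over 12 pools (0.944). Its level was 89.3 to 280.2 CPM in the 10 pools, 13.5 in Embryo444_2 and 44.6 in Embryo511_1. The lowest were LOC114118859, LOC105601897, ATG16L2, SDS and GPR17 (-0.954 to -0.924). The pools share sires and the coefficients were picked as extremes among all tested genes, so they describe these libraries and no p is given.

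Genes that make the ligands of galectins, or bind galectins or act in processes tied to them inside cells, were counted in 3 lists. A place in the list of intracellular partners does not mean that the protein binds a galectin. Of 9 tested enzymes that branch or cap N-glycans, 1 was higher and 0 lower in methionine pools at an unadjusted p under 0.05, with a median log2 fold change of 0.28 (0.01 over all tested genes) and none past the FDR. Over all genes tested, 3.55% were higher and 4.37% lower. Over 10 pools the counts were again 1 and 0 (median 0.23), against 5.74% and 6.18% of all genes. The gene was B3GNT2, which extends glycans by poly-N-acetyllactosamine, a preferred ligand of galectins, with 0.83 ± 0.29 (FDR 0.585, edgeR) over 12 pools and 0.87 ± 0.31 (FDR 0.317) over 10. The next smallest p was that of MGAT3, which adds the bisecting branch (-0.61 ± 0.40, FDR 0.719, over 12 pools and -0.32 ± 0.39, FDR 0.78, over 10, edgeR).

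Of 17 tested glycoprotein ligands, 0 had an unadjusted p under 0.05 over 12 pools in either direction (median log2 fold change 0.10), where 3.55% of all tested genes were higher and 4.37% lower. Over 10 pools 3 were higher and 1 lower (median 0.09), against 5.74% and 6.18% of all genes. LAMP1, a lysosomal membrane glycoprotein, had 65.4 to 148 CPM in 5 control pools, 119 to 515 in the pools of Ram424, 82.5 in Embryo498_1, 11.3 in Embryo444_2 and 12.9 in Embryo511_1. Its log2 fold change was 1.23 ± 0.63 over 12 pools (FDR 0.657, edgeR) and 1.23 ± 0.39 over 10 (FDR 0.276). LAMP2, a related protein of the lysosomal membrane, had 0.79 ± 0.43 and 0.84 ± 0.27 (FDR 0.666 and 0.28). The other genes past that level in 10 pools were ITGA5, a fibronectin receptor subunit (0.42 ± 0.19), and CD63, a tetraspanin of late endosomes, which was lower (-0.50 ± 0.23). As with LGALS3, the values of LAMP1 above the control range were in pools of Ram424, in 3 of its 4.

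Of 11 tested intracellular partners, 3 were higher and 0 lower at an unadjusted p under 0.05 over 12 pools (median log2 fold change 0.47), against 3.55% and 4.37% of all tested genes. Over 10 pools 3 were higher and 2 lower (median 0.02), against 5.74% and 6.18%. None passed the FDR, and the 2 lower ones were GEMIN4 (-1.28 ± 0.50) of the splicing-related SMN complex and SUFU (-0.82 ± 0.33) of the hedgehog pathway. TFEB, a transcription factor of lysosome genes, had 0.94 ± 0.37 over 12 pools and 0.998 ± 0.319 over 10 (FDR 0.585 and 0.28, edgeR). PDCD6IP and TSG101, which belong to the ESCRT machinery of membrane budding and repair, had 0.58 ± 0.23 and 0.77 ± 0.36 over 12 pools (FDR 0.591 and 0.62) and 0.61 ± 0.22 and 0.77 ± 0.26 over 10 (FDR 0.321 and 0.307). TFEB had 7.79 to 24.8 CPM in the 5 control pools, 26.8 to 38.5 in the pools of Ram424 and 22.9 in Embryo498_1. Here too the values above the control range belonged to Ram424, and pools of that sire make up 4 of the 5 methionine pools left.

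**Figure D4:**
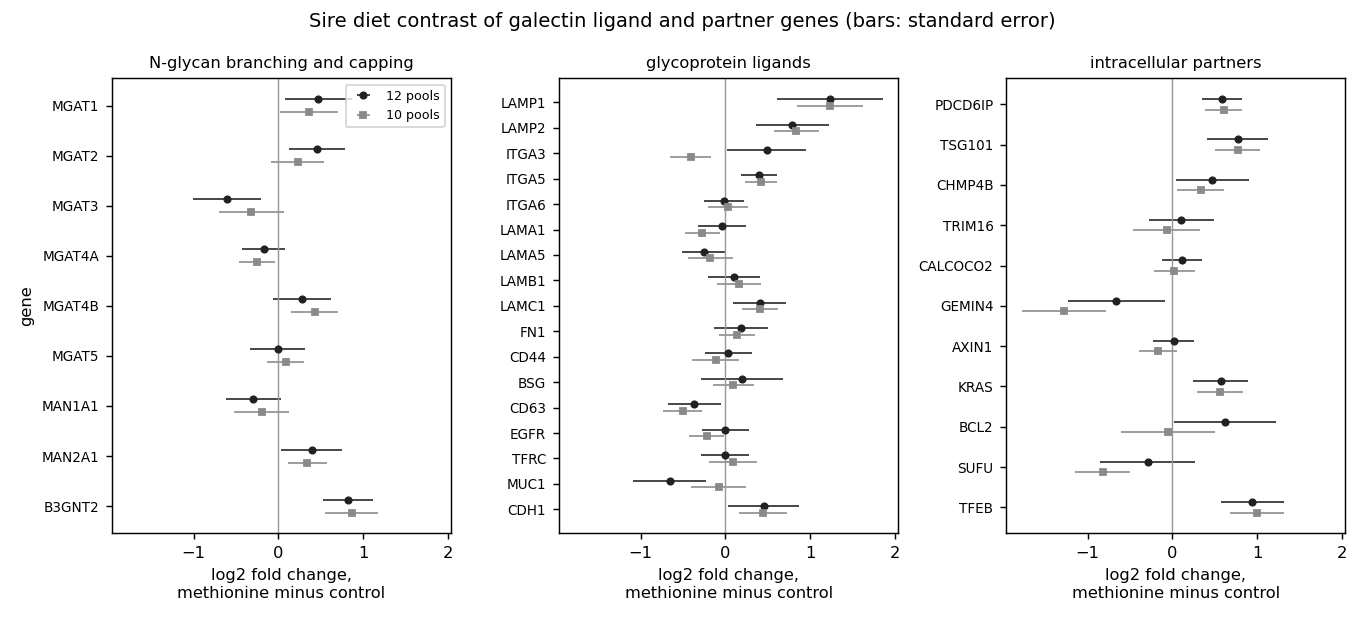
Log2 fold change (methionine minus control, with its SE as a bar) between diets of the sire for the tested genes of 3 lists of galectin ligands and partners, over 12 pools (black) and 10 pools (grey). B3GNT2, LAMP1, LAMP2, TFEB, TSG101, PDCD6IP and BCL2 are at 0.58 or above over 12 pools, BCL2 is at -0.06 over 10, and no gene passed an FDR of 0.05.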

How the data were processed

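RNA was sequenced from 12 pools of 5 embryos. The authors trimmed the reads with Trimmomatic, aligned them to Oar_rambouillet_v1.0 with STAR and deposited raw counts per gene and pool; the setting for strand is not given in the sources used here. Groups and sires were taken from the labels. Sperm methylation was not analysed here, as no gene annotation of that build was given.

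Genes reaching 15 counts in over 3 pools were kept, normalized by the trimmed mean of M-values and tested for diet by quasi-likelihood in edgeR 4.0.16 (R 4.3.3) with Benjamini-Hochberg adjustment over all tested genes. The SE is the absolute log2 fold change divided by the square root of the test statistic. P-values measure the spread between pools, which share sires. The fit was tested on simulated counts with known changes. Pools were drawn independently there, so that test does not cover shared sires or pools that stand apart. Exact tests used log2(CPM + 1), with a pseudocount of 1. Alternatives were the likelihood-ratio test, DESeq2 1.42.0, limma 3.58.1 with the sire as a random effect, other normalizations, filters and pseudocounts, summed pools, and each pool or sire left out. The fits over 10 pools and the sum of Embryo424_1 and Embryo424_2 were added after the data were seen. Intervals of counts are 95% Poisson intervals. Tables were made in Python 3.11.15 (pandas 2.3.3, numpy 2.4.6, scipy 1.17.1) and plots in matplotlib 3.10.9.

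The members and lists were chosen with earlier results of these data known. Named are the members, other galectins with a row, the 2 to 4 genes of smallest unadjusted p per partner list, the 5 genes most and least like LGALS3, and the most counted gene of each pool; those over 10 pools were named after the values were seen.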

Additional observations from a re-analysis of the deposited data

Results flagged for a closer look

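Dixon's criterion was applied to 14 groups of 6 pools (7 galectin genes in each diet, on the log2 scale). It tests the distance of the highest or lowest pool from the others. In 6 of the groups a pool lay beyond it, and this was Embryo444_2, Embryo511_1 or Embryo410_1. Chance gives about 1 in 20 groups when pools and groups are independent. The groups here reuse the same pools, which share sires, so that rate is no measure for them. LGALS3 was chosen on its counts, so its values are a description. LGALS3 was low in Embryo444_2 (14.9 CPM) among control pools and low in Embryo511_1 (92.2 CPM) among methionine pools. In Embryo444_2, LGALS4 (109 CPM) and LGALS2 (89.2 CPM) were high and LGALS8 (20.5 CPM) was low. LGALSL was high in Embryo410_1 (91.8 CPM), a pool that did not stand apart in its markers. Trophectoderm markers summed to 290.2 CPM in Embryo444_2 and 259 in Embryo511_1, and their part in these values was not tested.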

How the results depend on the processing

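No setting called LGALS4, LGALS8 or LGALS3BP at an FDR of 0.05. The number of genes called by diet, 0 in the quasi-likelihood test, was 5 with the likelihood-ratio test and 16 with DESeq2. The 5 were C20H6orf136, CERS1, HRC, LOC114111604 and UNC93A. Over the 10 pools without Embryo444_2 and Embryo511_1 this number was 1, 74 and 96 with the quasi-likelihood, likelihood-ratio and DESeq2 tests. These fits treat the pools of a sire as independent. Over the same 10 pools, 0 genes were called with the sire as a random effect and 0 with the pools of a sire summed. Over all pools both of these settings also called 0 genes. Leaving out 1 pool or sire gave 0 in the quasi-likelihood test. The cause of these differences was not tested. LGALS3 turned to -0.43 without Ram424, which left Embryo498_1 and Embryo511_1 as the methionine pools, and between sires its difference of 0.03 turned to -0.008 with a pseudocount of 5 and to -0.013 with CPM by the total count. Leaving out 1 pool gave 0.64 to 1.16 for LGALS3, 0.23 to 0.49 for LGALS8, -1.16 to -0.36 for LGALS4 and -1.58 to -0.42 for LGALS3BP; without Ram444 these were 0.61, 0.18, -0.27 and -0.21. The sire as a random effect gave 0.27 for LGALS3, and pools summed per sire gave 0.39. The lowest FDR over all settings was 0.413 for LGALS3BP, 0.425 for LGALS4 and 0.545 for LGALS8. A filter of at least 100 counts gave no value for LGALS4 and LGALS3BP, whose 7 to 57 counts in most pools limit the precision. The planned comparison of sperm methylation at these genes was not run. No paired analysis was possible because the groups compared share no replicate numbers.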

Other observations

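TNP1, the transition protein of condensing sperm chromatin, had 1008 CPM in Embryo511_1 and 1.2 to 15.6 CPM in the other 11 pools; Embryo511_1 was the pool with 92.2 CPM of LGALS3. Of the cumulus genes, FOXL2 and HAS2 were the 2 with a row. CSF1R, a receptor of macrophages and trophoblast, had 639 CPM in Embryo410_2 and 25 to 108 CPM in the other pools, while LGALS3 in Embryo410_2 (3278 CPM) was close to that of Embryo410_1 (2798 CPM).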
